A study of Mus musculus with 35 samples.

Results

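Leaving c-Myc out of the reprogramming cocktail was compared with including it in iPS clones from tail tip fibroblasts (TTF), the adult skin and connective tissue cells of the tail. The samples are the 5 clones titled as TTF with 3 factors and the 5 titled as TTF with 4 factors, 10 of the 35 arrays of the series. All 10 clones came from TTF of 6-week-old mice that carry a Nanog-GFP-Puro reporter transgene, in which the Nanog promoter drives GFP and puromycin resistance. 4F-TTF-iPS clones had received pMX retroviruses for Oct3/4, Sox2, Klf4 and c-Myc, and 3F-TTF-iPS clones the first 3 alone. A DsRed virus was given with both sets, and GFP+ DsRed- colonies were picked, after puromycin selection that began at 3 weeks for 4 factors and at 4 weeks for 3 factors. Time to selection therefore differed along with the factors, and the effects of these cannot be told apart. The clones were kept on SNL feeder cells, a mouse fibroblast line, in medium with LIF. Each array holds 1 clone, labelled with Cy3, and 2 arrays of ES cells (EB-3 and RF8) and 1 of primary TTF serve for orientation. Whether clones of a group are independent colonies was not tested. The limma p-values rest on 1 spread per probe shared by 7 groups (6 groups of clones from 3 sources, and ES cells). They therefore do not measure the spread of the 10 TTF clones alone, which the SDs and the exact permutation tests do.

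c-Myc is a transcription factor that pairs with Max on E-box DNA and drives genes for ribosomes, metabolism and cell division. In reprogramming it raises the number of colonies, but it is dispensable, and its reactivation from an integrated virus is a known source of tumours. Without c-Myc, reprogramming of fibroblasts is slower and yields fewer colonies.

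Levels are log2 intensities relative to the 75th percentile of the array, and a difference is the mean of 3F-TTF-iPS minus that of 4F-TTF-iPS clones. A probe is called changed at an adjusted p under 0.05 (limma, Benjamini-Hochberg adjustment over the 27622 probes tested) and at least 2-fold. Between 57.0% and 65.6% of gene probes were well above background on the 10 arrays. 4F-TTF-iPS #1 to #4 lay on 1 slide and 3F-TTF-iPS #2 to #5 on another, while 4F-TTF-iPS #5 and 3F-TTF-iPS #1 lay on slides with 3F-clones of the bone marrow sources. No slide held both groups of TTF clones, so that slide and factors cannot be told apart. The main counts are therefore given with the slide as a random block too (duplicateCorrelation in limma, correlation within slides 0.329), and some lists with the difference between 3F-TTF-iPS #1 and 4F-TTF-iPS #5, which lay outside the main slides. Of 27 gene lists, 13 had a median of the opposite sign between these 2 clones. A fit with slide as a fixed block, which can be had only through the 3F-clones of bone marrow on the shared slides, is given for some results. It draws its TTF contrast from 1 clone of each group, so that its values are imprecise. A turn of sign there is a point value and no settled reversal. A pair of 4F-clones stood apart. 4F-TTF-iPS #1 had the lowest Sox2 and Nanog (-5.27 and -6.06, each gene above background in 4 of the 4F-clones), and 4F-TTF-iPS #3 was the only clone with the Y-linked genes Eif2s3y and Ddx3y above background (Eif2s3y at 1.48, against -8.10 to -6.63 in the other 4F-clones) and had Xist at -7.26, against 2.34 to 3.29 in the other 4F- and -2.55 to 2.06 in the 3F-clones.

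A pair of c-Myc probes separated the groups in the direction the labels give. The array carries 3 Myc probes on chromosome 15 (mouse build mm7). The probe at 62063665 to 62063724 lies upstream of the stop codon, in the coding sequence. The probe at 62064157 to 62064216 spans the stop codon, and the probe at 62064256 to 62064316 lies downstream of it, in the 3′ UTR of the endogenous gene. The sequences of the former 2 are shown because they can read a coding insert, with the stop codon in capitals and 13 bases after it.
Myc coding probe: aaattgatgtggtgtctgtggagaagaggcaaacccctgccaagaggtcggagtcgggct
Myc stop codon probe: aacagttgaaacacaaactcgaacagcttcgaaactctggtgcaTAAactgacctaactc

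On the coding probe the level was 0.78, 0.17, -0.78, -0.37 and 0.59 in 4F-TTF-iPS #1 to #5. The 3F-clones, with -3.06, -3.22, -3.40, -4.14 and -4.02 in #1 to #5, were all below every 4F-clone. The mean fell by 3.65 on the log2 scale, 12.5-fold (standard error 0.965, adjusted p = 0.0176 by limma), and the exact permutation test gave p = 0.00794, two-sided, the smallest that 5 against 5 clones allow. On the stop codon probe the mean was 1.90 ± 0.70 (SD, n = 5) in 4F- and -0.95 ± 0.42 (SD, n = 5) in 3F-clones, a fall by 2.85 on the log2 scale (limma, adjusted p = 0.0301). The 3′ UTR probe, in contrast, read 0.12 ± 0.46 (SD, n = 5) and -0.06 ± 0.38 (SD, n = 5), and the groups overlapped (limma, adjusted p = 0.773). The difference between the coding and the UTR probe within an array was -3.67 to -3.35 in 3F-clones, -4.37 and -3.68 on the ES arrays and -3.85 in primary TTF, whereas it was -0.93 to 0.95 in 4F-clones. With the slide as a random block neither coding probe passed (limma, adjusted p = 0.382 and 0.424). With slide as a fixed block the coding probe differed by -2.08 and the stop codon probe by -2.14. On the slide of 4F-TTF-iPS #5, 3 clones made from PαS cells (bone marrow mesenchymal stem cells) without c-Myc had coding probe levels of -3.79, -3.73 and -3.71, against 0.59 in that clone. The part of the slide in these values was not tested. Without 4F-TTF-iPS #1 neither probe passed, though the stop codon probe still differed by -2.69 (adjusted p = 0.0796), and by -2.77 with the random block.

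**Figure D1:**
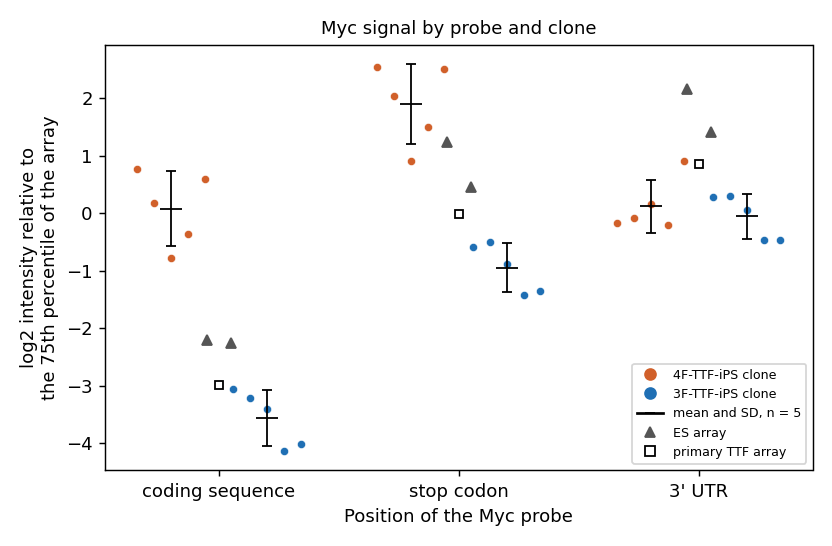
Level of each Myc probe (log2 intensity relative to the 75th percentile of the array) by position of the probe, in 4F-TTF-iPS (orange) and 3F-TTF-iPS (blue) clones, with mean and SD of 5 clones, the ES arrays (triangles) and primary TTF (square). The groups are apart on the coding and stop codon probes and overlap on the 3′ UTR probe.

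The other reprogramming factors did not pass the test. Pou5f1 (Oct3/4) differed by 0.07 (standard error 0.754, limma, adjusted p = 0.966) and Klf4 by 0.11 (adjusted p = 0.907), and whether their single probes also read the viral copies was not settled. Sox2 differed by 2.19 (limma, adjusted p = 0.388), a value that rests on 4F-TTF-iPS #1 at -5.27, while the other 4F-clones were at 0.21 to 1.82 and the 3F-clones at 1.58 to 2.79, and it was 0.89 without that clone. Of the ES cell markers tested by RT-PCR in the study, Nanog differed by 2.69 (adjusted p = 0.254), Dppa5a by 1.65 (adjusted p = 0.346), Zfp42 (Rex1) by 1.05, Eras by 1.04, Nr0b1 (Dax1) by -0.27 and Gdf3 by -0.57, none of which passed. Without 4F-TTF-iPS #1 the differences were 1.35 for Nanog, 0.67 for Dppa5a, 0.72 for Zfp42, 0.33 for Eras and -0.89 for Nr0b1. With slide as a fixed block Sox2 was at -0.69, Nanog at -1.15 and Eras at -1.21. The standard errors there were 5.04, 4.78 and 2.28, so that the sign is not settled. Of 15 genes of the pluripotency network and 12 ES cell markers, lists that share Nanog and Zfp42, 0 changed, with 4 and 0 at an unadjusted p under 0.05. Fbxo15 came nearest, at 0.77 (limma, adjusted p = 0.0392), below the 2-fold minimum. Tbx3, a T-box factor of ground-state ES cells, was higher in every 3F-clone than in any 4F-clone, with means of 3.33 ± 0.51 and 1.68 ± 0.68 (SD, n = 5 each), and did not pass (limma, adjusted p = 0.0543, and 0.615 with the slide as a random block). With slide as a fixed block its difference was -1.09. Closeness to ES cells as a whole did not differ beyond the spread between clones. R², the squared correlation of a clone with the mean of the ES arrays over all gene probes, differed by 0.00119 (p = 0.944 by the exact permutation test, two-sided), although it ranged over 0.833 to 0.890 in 4F- and over 0.865 to 0.880 in 3F-clones. R² to the primary TTF array was 0.771 ± 0.00687 in 3F- and 0.778 ± 0.0115 (SD, n = 5 each) in 4F-clones (exact permutation test, two-sided, p = 0.294). The correlation among clones of a group, with every probe expressed relative to its median across the clone and ES arrays, was on average 0.387 for 3F- and 0.370 for 4F-clones (p = 0.833, two-sided exact permutation test). Between the groups it was -0.0889. It was lower between clones on different slides, at 0.200 against 0.483 on the same slide for 4F-clones and 0.357 against 0.408 for 3F-clones.

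Over single probes the groups differed widely. Of 27622 probes 1594 changed (5.77%), 1095 higher (3.96%) and 499 lower (1.81%) in 3F-TTF-iPS clones, and 1294 of these did not overlap between the groups, as did 18.5% of all probes tested. A probe was tested if well above background throughout at least 1 of 7 groups. For 104 probes this was the 4F-TTF-iPS group alone, and 47 of them changed. For 29 it was the 3F-TTF-iPS group alone, and 6 of them changed. Quantile normalization, which moves the balance, gave 908 higher and 842 lower. With the slide as a random block 7 probes remained (0.0253% of those tested), 6 higher and 1 lower, and all 7 were among the 1594. With slide as a fixed block 4 probes passed, 0 of them among the 1594, and 1013 probes had an unadjusted p under 0.05 (limma). Without 4F-TTF-iPS #1 and #3 the number was 599, of which 563 were among the 1594, and without #1 alone it was 840.

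**Figure D2:**
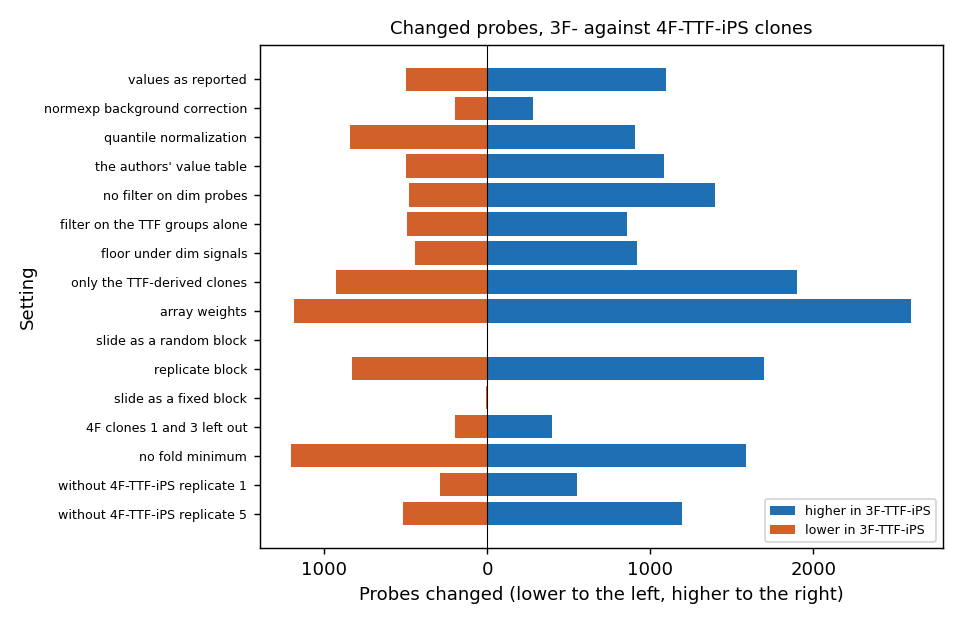
Number of probes changed between 3F- and 4F-TTF-iPS clones under each setting, lower to the left and higher to the right, with the lowest and highest count of those that leave out 1 clone. The count is 1594 as reported, 7 with the slide as a random block and 4 with slide as a fixed block.

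The 7 probes that passed with the slide as a random block were of genes with varied roles. Ppp1r10, a nuclear targeting subunit of protein phosphatase 1, was at 1.93, 1.79, 1.62, 1.74 and 2.70 in 4F-TTF-iPS #1 to #5 and at 4.23, 4.12, 3.97, 4.11 and 4.38 in 3F-TTF-iPS #1 to #5. Every 3F-clone was thus above every 4F-clone, by 4.61-fold on average (limma, adjusted p = 4.27e-05, and 0.0141 with the random block). Slc30a1, a zinc exporter, was 3.33-fold higher (-1.65 to -0.91 in 4F- and 0.28 to 0.67 in 3F-clones, adjusted p = 0.0141 with the block). Utp14b, a retrogene for ribosomal RNA processing used in the male germline, was 4.02-fold higher (adjusted p = 0.00802 with the block), at -5.67 to -5.19 in 4F- and -3.65 to -3.13 in 3F-clones. Matn1, a cartilage matrix protein, was at least 4.49-fold higher, since it was above background in all 3F- and in 0 of the 4F-clones (adjusted p = 0.0217 with the block). Retn (resistin) was at least 1.72-fold higher, above background in 4 of the 3F- and 0 of the 4F-clones (adjusted p = 0.00802 with the block). Krt75, a hair follicle keratin, differed by 2.90 and was above background in 3 of the 4F-clones (adjusted p = 0.0282 with the block). The 1 lower probe was of Tcf19, a gene of cycling cells, which fell by 1.56 on the log2 scale, from 2.06 to 3.21 in 4F-clones to 0.58 to 1.40 in 3F-clones (adjusted p = 0.0351 with the block).

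The largest differences were in genes that were low in 3F-clones. Each array reads a whole culture, in which fewer expressing cells and less RNA per cell cannot be told apart. Among genes with a RefSeq symbol whose brightest probe was above background in all 10 clones, the 8 with the largest fall were Klk1b5, Klk1b3, Klk1b8, S100a14, Cbr2, Pkp1, Slc38a5 and Lgals7. Klk1 had a larger difference, -8.78 (limma, adjusted p = 0.00234), but was above background in 4 of the 3F-clones and so is in neither set named here. Klk1b5, a secreted serine protease of the tissue kallikrein family, had levels of 6.54, 6.91, 5.58, 6.93 and 4.22 in 4F-TTF-iPS #1 to #5, against -2.14, -3.52, -2.34, -3.26 and -1.93 in the 3F-clones #1 to #5. The gap of 408-fold (limma, adjusted p = 0.00186), a difference of -8.67 that was -4.41 with slide as a fixed block, was larger than the spread within either group, and the ES arrays, with a mean of -2.32, lay with the 3F-clones. S100a14, a calcium-binding protein of epithelia, was at 4.71, 4.13, 3.63, 3.49 and 2.29 in 4F-TTF-iPS #1 to #5 and at -3.84 to -2.68 in the 3F-clones, 110-fold lower (adjusted p = 0.00152). Pkp1, a plaque protein of desmosomes, was 78.5-fold lower, with 1.47 to 3.32 in 4F- and -4.94 to -3.54 in 3F-clones (adjusted p = 0.00502). Cbr2, a carbonyl reductase, was 97.0-fold lower, Slc38a5, a glutamine transporter, 61.2-fold, and Lgals7, a galectin of stratified epithelium, 40.5-fold (limma, adjusted p = 0.00198, 0.00434 and 0.0036). Within the 4F-clones, the 3 kallikreins, S100a14 and Pkp1 were lowest in #5. In primary TTF Pkp1 was at -8.74 and Klk1b5 at -6.76, but Cbr2 was at 4.59, near its 4F mean of 4.43.

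Other genes were not above background in any 3F-clone, so that only a lower bound of the fall can be given. Which of them entered the test through the 4F-TTF-iPS clones alone is not given here. Alox15, an arachidonate lipoxygenase, was at least 58.7-fold lower, and its 4F-clones ranged from -3.40 in #5 to 1.93. Sprr2d, a protein of the cornified envelope, was at least 29.7-fold lower, Ceacam1, an adhesion molecule, at least 17.7-fold, and Krtdap, a secreted keratinocyte protein, at least 15.1-fold (limma, adjusted p = 0.00276, 0.00258 and 0.00538). Lrrc26, Gcnt3, an enzyme of mucin glycans, Sftpd, a surfactant collectin, and Spink5, a protease inhibitor of the epidermis, were at least 14.7-, 11.7-, 11.0- and 10.8-fold lower. With the slide as a random block 0 of these 16 genes passed, their adjusted p lying between 0.145 for S100a14 and 0.306.

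**Figure D3:**
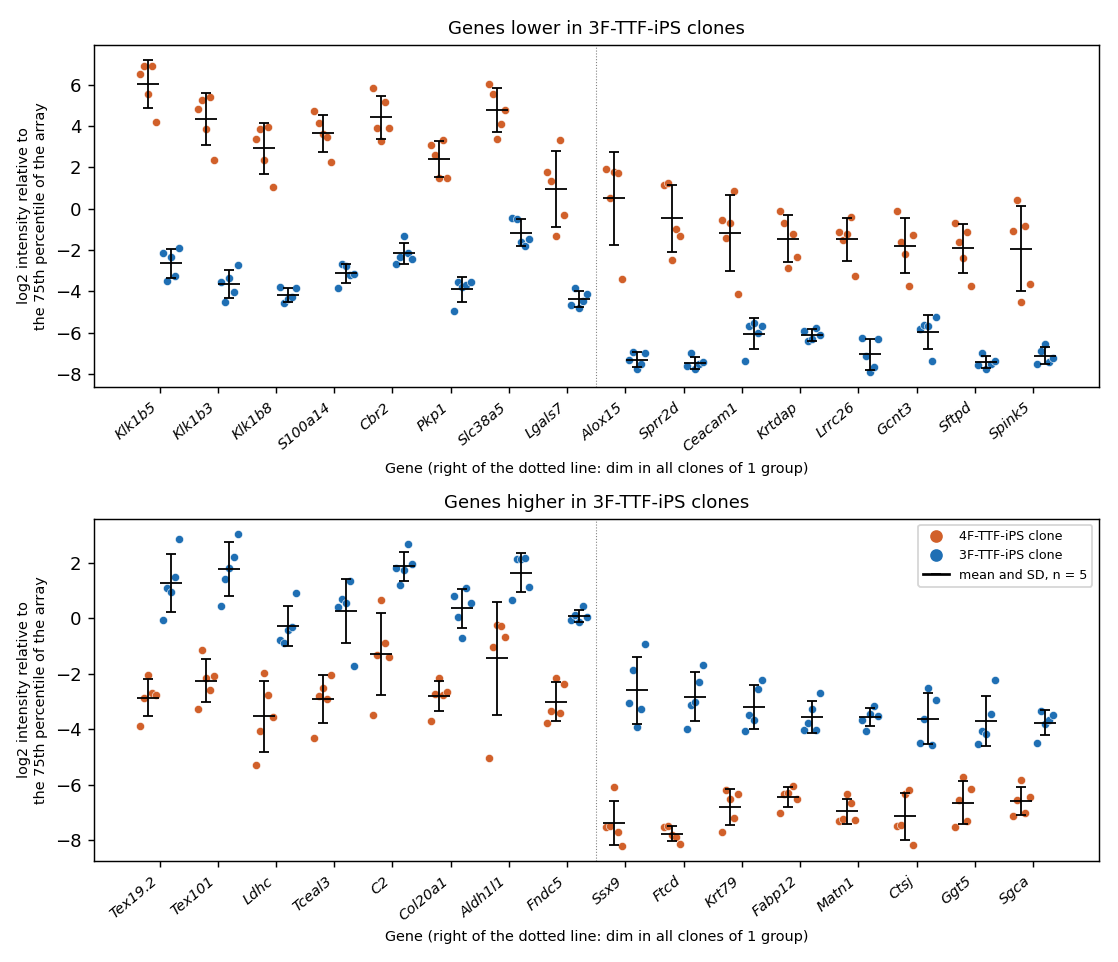
Level (log2 intensity relative to the 75th percentile of the array) of the genes with the largest differences, lower (upper panel) and higher (lower panel) in 3F-TTF-iPS clones, for 5 clones of each group with mean and SD. Left of the dotted line all clones were above background, and on the right all clones of the low group were dim. In each gene the groups do not overlap.

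The kallikreins, a family picked after its values were seen, were looked at as a whole. Of 21 Klk probes tested, of 18 genes, 15 were lower and 0 higher, with differences from -8.78 to -0.02 and a median of -3.997. The median was -3.59 with the slide as a random block and -2.12 with slide as a fixed block. No weight can be put on this count, because 6 of the 21 probes, 4 of them changed, passed the filter on dim signals through the 4F-TTF-iPS clones alone, and because Klk1b genes are close copies whose probes may share targets. The mean level of the 21 probes was 0.31, 0.35, -1.19, 0.57 and -1.76 in 4F-TTF-iPS #1 to #5, against -4.86, -5.09, -4.82, -4.95 and -4.02 in 3F-TTF-iPS #1 to #5. It was -5.82 and -4.75 on the ES arrays and -5.07 in primary TTF, and these levels are a description, with no test. Against a background of 1.81% lower, 7 of 24 probes of Serpinb genes and 7 of 19 Sprr and Lce probes were lower and 0 higher, and of 30 keratin probes 3 were lower and 3 higher. These families, too, were named after the values were seen. How many of their probes passed the filter through the 4F-TTF-iPS clones alone is not given here, so that no weight can be put on these counts either. The list of 13 epithelial genes, which holds the general markers of epithelia, had 1 member lower, the splicing regulator Esrp1 at -2.32 (limma, adjusted p = 0.0132, and 0.444 with the slide as a random block), a median of -0.32, and levels that overlapped between the groups (1.06 to 2.34 in 4F- and 0.76 to 1.82 in 3F-clones). With slide as a fixed block Esrp1 turned to 0.57 and the median of the epithelial list to 0.58. Between 3F-TTF-iPS #1 and 4F-TTF-iPS #5 that median was 0.37. Of 9 trophectoderm genes 7 had a positive difference, with a median of 0.86 that turned to -0.50 with slide as a fixed block. The 1 that changed was Elf5, an ETS factor of trophoblast and gland epithelium, which fell by 3.88 on the log2 scale (adjusted p = 0.0142, and 0.341 with the random block), while Hand1 (3.53, adjusted p = 0.101) and Cdx2 (1.66, adjusted p = 0.175), factors of trophoblast, did not overlap between the groups and did not pass. With slide as a fixed block they were at -0.46 and -1.10. Among 12 genes of primed epiblast and primitive streak Evx1 was lower (-2.85, adjusted p = 0.00444, and 0.176 with the random block, above background in 1 of the 3F-clones). No weight can be put on this call, because Evx1 passed the filter on dim signals through the 4F-TTF-iPS clones alone.

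Of the gene lists, germline genes had the most members higher in 3F-clones. Of the 21 listed germline genes, all of which were tested, 13 were higher (background 3.96%), 0 lower and 8 not changed. All 21 differences were positive, with a median of 2.63 against 0.04 over all probes tested, and none of the 21 owed its place in the test to the 3F-TTF-iPS clones alone. The mean level of the list was -4.10, -2.95, -2.09, -2.74 and -2.64 in 4F-TTF-iPS #1 to #5, against -1.21, -0.31, -0.31, 0.10 and 0.68 in 3F-TTF-iPS #1 to #5, so that the groups did not overlap. The ES arrays were at -1.95 and -1.81, between the groups, and primary TTF at -8.19. The list's median was 1.40 between 3F-TTF-iPS #1 and 4F-TTF-iPS #5, with 20 of 21 differences positive, and it was 2.58 without 4F-TTF-iPS #1 and #3, where 6 genes changed. With the slide as a random block 0 of the 21 genes passed (median 2.27), and with slide as a fixed block the median was 0.18.

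Dazl, an RNA-binding protein needed for germ cell development, was at -7.67, -5.83, -2.45, -4.25 and -3.82 in 4F-TTF-iPS #1 to #5, above background in 3 of them. In 3F-TTF-iPS #1 to #5 it was at -2.22, -0.70, -0.11, 0.38 and 0.73. The lowest 3F-clone was thus just above the highest 4F-clone, and the mean difference was 4.42 (limma, standard error 1.22, adjusted p = 0.0222). Tdrd9, a tudor domain helicase of the piRNA pathway that silences transposons in the male germline, differed by 4.22 (adjusted p = 0.00155). It was at -3.26 to -1.67 in the 3F-clones, and only 1 of the 4F-clones was above background. Mov10l1, a helicase of piRNA production, was at -7.61, -6.05, -3.68, -5.82 and -6.05 in 4F-TTF-iPS #1 to #5 and at -2.77 to -1.09 in 3F-clones, a difference of 4.10 (adjusted p = 0.00347). It was above background in only 1 of the 4F-clones, so that the sizes for Dazl, Tdrd9 and Mov10l1 rest in part on signals not above background. Of the 8 genes with the largest rise among those above background in all 10 clones, the first 3 are known from the testis as well. Tex19.2, of a family that restrains retrotransposons, was 17.5-fold higher, with -3.89 to -2.05 in 4F- and -0.04 to 2.85 in 3F-clones (adjusted p = 0.00565). Tex101, a surface glycoprotein of germ cells, was 16.4-fold higher, and Ldhc, the lactate dehydrogenase of sperm, 9.49-fold (adjusted p = 0.0121 and 0.0276). Ssx9, an X-linked gene of the cancer-testis kind, was at least 8.75-fold higher and above background in 0 of the 4F-clones (adjusted p = 0.00357), though the Ssx genes are close copies. With the slide as a random block Tex19.2, Tex101, Ldhc and Ssx9 did not pass (limma, adjusted p = 0.221, 0.315, 0.39 and 0.179). Their differences with slide as a fixed block were 1.97, 0.83, 1.59 and 2.88.

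The other 5 of these 8 are of mixed roles. Tceal3, an X-linked gene of the elongation factor A-like family, was 8.96-fold higher, the complement component C2 8.95-fold, the collagen Col20a1 8.89-fold, the folate enzyme Aldh1l1 8.52-fold and Fndc5, the precursor of irisin, 8.51-fold. Col20a1 was at -3.68, -2.73, -2.15, -2.75 and -2.66 in 4F-TTF-iPS #1 to #5 and at 0.81, 0.04, -0.70, 1.08 and 0.55 in 3F-TTF-iPS #1 to #5, wide apart, and came near the threshold with the slide as a random block (adjusted p = 0.0556). Of genes dim in all 4F-clones, the folate enzyme Ftcd was at least 7.50-fold higher (adjusted p = 0.000479), the keratin Krt79 at least 5.79-fold and Fabp12, a fatty acid-binding protein, at least 4.51-fold. Ctsj, a placental cathepsin, Ggt5, a gamma-glutamyl enzyme, and Sgca, a sarcoglycan of muscle, were at least 4.30-, 4.10- and 3.93-fold higher.

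The promoters of the 3 listed germline genes with the largest differences are shown, to look for the E-box CACGTG, which Myc and Max and their relatives bind. They are the 250 bases before the gene's start from RefSeq (GRCm38.p6), at chr17:50293621-50293870 on the minus strand for Dazl, chr12:111971309-111971558 on the plus strand for Tdrd9 and chr15:88982744-88982993 on the plus strand for Mov10l1. CACGTG, which reads the same on both strands, is in capitals. The Dazl stretch holds none.
Dazl: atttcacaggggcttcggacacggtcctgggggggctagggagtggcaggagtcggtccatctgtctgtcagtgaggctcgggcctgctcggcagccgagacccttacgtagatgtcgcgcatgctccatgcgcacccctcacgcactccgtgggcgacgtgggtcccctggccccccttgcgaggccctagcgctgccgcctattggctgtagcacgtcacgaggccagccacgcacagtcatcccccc
Tdrd9: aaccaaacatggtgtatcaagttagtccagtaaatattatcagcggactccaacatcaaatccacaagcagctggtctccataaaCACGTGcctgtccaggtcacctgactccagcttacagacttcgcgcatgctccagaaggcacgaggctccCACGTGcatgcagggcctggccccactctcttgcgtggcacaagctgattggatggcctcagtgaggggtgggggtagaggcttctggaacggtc
Mov10l1: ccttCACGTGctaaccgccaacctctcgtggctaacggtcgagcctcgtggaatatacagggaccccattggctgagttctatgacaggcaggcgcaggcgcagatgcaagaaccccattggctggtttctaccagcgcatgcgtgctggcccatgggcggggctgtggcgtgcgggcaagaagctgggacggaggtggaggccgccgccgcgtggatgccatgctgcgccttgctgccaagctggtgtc

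Of the germline genes with a promoter in the table, 7 of the 13 that changed and 4 of the 6 that did not hold CACGTG in these 250 bases. The share was 57.9% over the list, 25.9% of 27 Myc growth targets, 9.70% of the genes tested and 6.86% of all promoters. It was 11.4% of 612 genes with a higher and 6.51% of 261 genes with a lower probe. A match describes these letters alone, and binding was not measured.

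Genes of the 2-cell-like state, a rare state of ES cells with genes of the early embryo, did not pass the test. Gm397, a Zscan4 gene, was at -5.30, -2.05, 1.73, -0.99 and 0.66 in 4F-TTF-iPS #1 to #5 and at 0.27, 2.41, 2.90, 3.77 and 2.50 in 3F-TTF-iPS #1 to #5. The groups overlapped through 4F-TTF-iPS #3 and #5, and the difference of 3.56 missed the threshold (limma, adjusted p = 0.0682), and was -1.72 with slide as a fixed block. Of 4 tested probes of the list 0 changed, although the median was 2.75 and all 4 had an unadjusted p under 0.05. Between 3F-TTF-iPS #1 and 4F-TTF-iPS #5 all 4 differences were negative, with a median of -0.63, so that the direction was not shared by the clones outside the main slides. The imprinted genes of the Dlk1-Dio3 region did not pass either. Meg3 (Gtl2), its maternal noncoding RNA, differed by 2.57 (adjusted p = 0.163), Rian by 2.10 (adjusted p = 0.114) and Mirg by 2.48 (adjusted p = 0.0603), and 0 of 5 genes changed. Rian was above background in 4 and Mirg in 3 of the 4F-clones, so that these sizes rest in part on signals not above background. With slide as a fixed block Meg3, Rian and Mirg were at 1.01, 0.24 and -0.05. The median of the 5 genes was 2.23, and 0.76 without 4F-TTF-iPS #1 and #3. The mean level of the 5 genes was 0.66 to 1.55 in 3F-clones and -2.37, -0.67, -2.86, 0.13 and 1.18 in 4F-TTF-iPS #1 to #5, so that the 4F-clones spanned a wider range than the 3F-clones. Between 3F-TTF-iPS #1 and 4F-TTF-iPS #5 the differences were negative in 4 of the 5 genes. Of 24 other imprinted genes 1 changed (4.17%, against 5.77% of all probes), the retrogene Zrsr1, which was 2.42-fold higher, at 0.01 to 0.94 in 4F- and 1.27 to 2.03 in 3F-clones (adjusted p = 0.000239, and 0.084 with the slide as a random block).

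**Figure D4:**
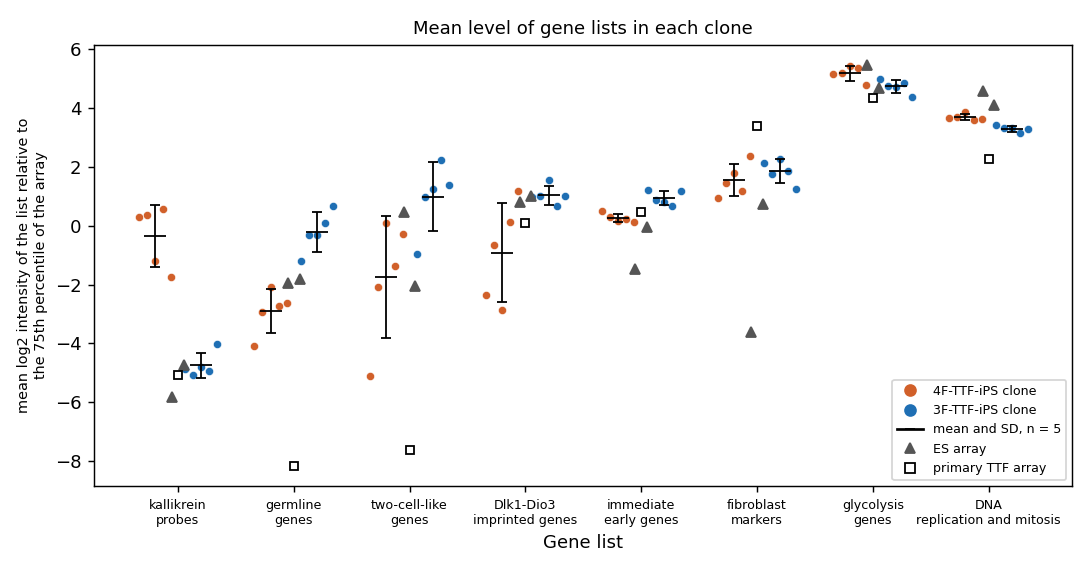
Mean level (log2 intensity relative to the 75th percentile of the array) of the kallikrein probes and of 7 gene lists in each clone, with mean and SD of 5 clones per group, ES arrays and primary TTF. Kallikreins, germline genes, immediate early genes and replication genes do not overlap between the groups, whereas the other lists drawn do.

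Of 33 Myc growth targets, genes of ribosome making, nucleotide synthesis and metabolism, 1 was lower (3.03%, against 1.81% of all probes), the transferrin receptor Tfrc, which fell by 1.30 on the log2 scale (limma, adjusted p = 0.0373). The other 32 did not change on the brightest probe, although another probe of Ldha (-1.32, adjusted p = 0.00106) and of Eif4e (-1.36, adjusted p = 0.0154) was lower, and 25 of the 33 differences were negative, with a median of -0.28. The mean level of this list was 3.42 to 3.64 in 4F- and 3.15 to 3.31 in 3F-clones. Of 22 genes of DNA replication and mitosis 0 changed and 20 were negative, with a median of -0.37. Mki67, a marker of cycling cells, differed by -0.73 (adjusted p = 0.0195), below the 2-fold minimum, from 4.01 ± 0.15 to 3.28 ± 0.36 (SD, n = 5 each). The mean level of the replication list was 3.59 to 3.88 in 4F- and 3.16 to 3.42 in 3F-clones, and 4.60 and 4.12 on the ES arrays. Glycolysis genes had 2 of 18 members lower (background 1.81%) and a median of -0.48, which was 0.12 between 3F-TTF-iPS #1 and 4F-TTF-iPS #5. Slc2a1, a glucose transporter, fell by 1.17 and Pkm, pyruvate kinase, by 1.02 on the log2 scale (adjusted p = 0.0337 and 0.0243). With slide as a fixed block Slc2a1 turned to 0.81 and Pkm was at -0.08, and for Slc2a1 the groups overlapped, since 3F-TTF-iPS #1 (5.86) was above 4F-TTF-iPS #5 (5.62). Among Myc's partners and rivals for Max, 2 of the 11 besides Myc itself changed (background 5.77%, 1.81% lower): Mxd1 was 2.88-fold and Mxd3 2.25-fold lower (adjusted p = 0.012 and 0.0047), with differences of -0.01 and -0.74 with slide as a fixed block. None of these lists kept a changed gene with the slide as a random block.

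Other lists held few changed genes. Of 12 immediate early genes, which respond within minutes to growth factors and stress, 4 were higher (background 3.96%), 0 of them with the slide as a random block. Egr1, a zinc finger factor, was at 0.41 to 1.14 in 4F- and at 2.17 to 3.21 in 3F-clones, 3.70-fold higher (adjusted p = 0.000532, and 0.0556 with the slide as a random block). Egr2 was 4.64-fold higher, Egr3 differed by 1.61 and was above background in 2 of the 4F-clones, and Fosb differed by 1.07 (adjusted p = 0.0143, 0.0292 and 0.0417, and 0.352, 0.414 and 0.267 with the random block). The mean level of this list was 0.11 to 0.50 in 4F- and 0.67 to 1.23 in 3F-clones. Of 15 genes of the p53 and Ink4a/Arf barrier 1 was higher, Trp53inp1 by 2.00-fold (adjusted p = 0.00411, and 0.279 with the random block), and the median was 0.49, which was -0.01 between 3F-TTF-iPS #1 and 4F-TTF-iPS #5. Dusp6, a feedback inhibitor of ERK, fell by 1.25, and Id3, a BMP target, rose by 1.54 on the log2 scale (adjusted p = 0.0149 and 0.0352, and 0.36 and 0.404 with the random block), though for Id3 the groups overlapped and Dusp6 was at -0.19 with slide as a fixed block. Hoxc13 rose by 1.01 (adjusted p = 0.0121, and 0.404 with the random block), 1 of 27 Hox genes. It was above background in 3 of the 4F-clones and turned to -0.23 with slide as a fixed block. Dnmt1, the maintenance DNA methyltransferase, was at 2.63 to 2.90 in 4F- and at 1.56 to 2.24 in 3F-clones, a difference of -0.87 (adjusted p = 0.00493) below the 2-fold minimum, and 0 of 13 DNA methylation enzymes changed. Of 27 fibroblast markers, which TTF and feeder cells share, 0 changed: Mmp2, a matrix metalloprotease, came nearest, 2.15-fold higher on average (adjusted p = 0.106), and the mean level was 0.96 to 2.37 in 4F- and 1.25 to 2.27 in 3F-clones, against 3.40 in primary TTF and -3.60 and 0.75 on the ES arrays. The part of feeder cells in these levels was not tested. The lists of contractile genes (12), primitive endoderm genes (16), neural genes (9), interferon-stimulated genes (21) and LIF-Stat3 genes (9) had 0 changed, with Cnn1 at 1.49, Lamc1 at -1.03, Sox21 at -0.93, Oas1a at -1.70 and Socs3 at -0.52 as the members with the smallest p. Of all listed genes that did not change on the brightest probe, 6 had another probe that did, namely Ldha, Eif4e, Fas, Ncam1, Fgfr2 and Irf1.

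The changed genes did not simply bring 3F-clones nearer to ES cells. Of the 499 lower probes, 312 had the 3F mean nearer to the ES mean than the 4F mean was. Of the 1095 higher probes 454 did, and 604 were at least 2-fold above the ES mean in 3F-clones. Over all probes tested the 3F mean was the nearer in 48.9%. ES cells were scanned in other sessions than the clones, and how far that moves these counts was not tested.

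The contrast of 3 with 4 factors was also made in clones from PαS and OP cells (osteoprogenitors), which were not tested against each other. Neither shares an array with the TTF contrast, though 3F-OP-iPS #3 to #5 shared a slide with 3F-TTF-iPS #1, and 3F-PαS-iPS #1 to #3 one with 4F-TTF-iPS #5. In these sources, too, no slide held both 3F- and 4F-clones, so that slide and factors cannot be told apart. With the slide as a random block 168 probes (0.608%) changed in OP and 0 in PαS clones (limma, smallest adjusted p = 0.319, with 3266 probes at an unadjusted p under 0.05). Between 3F- and 4F-OP-iPS clones 1085 probes were higher (3.93%) and 159 lower (0.576%). Of these, 535 higher and 72 lower ones changed in the same direction in TTF clones, which is 38.1% of the TTF calls and 48.8% of the OP calls, and 2 went in opposite directions. Of the 1095 probes higher in 3F-TTF-iPS clones 98.8% had a positive difference in OP clones, where 51.4% of all probes did, with a median of 1.43. Of the 499 lower ones 91.0% were negative, with a median of -0.89. Germline genes had 14 of 21 members higher in 3F-OP-iPS clones, with a median of 2.67, and the kallikrein probes a median of -1.73. Between 3F- and 4F-PαS-iPS clones 5 probes changed (0.0181%). The probes higher in 3F-TTF-iPS clones were positive there in 60.6% and the lower ones negative in 67.5% of cases, where 50.2% of all probes were positive, with medians of 0.13 and -0.29, and the germline median was 0.17. The Myc coding probe had means of -1.68 in 3F- and 0.70 in 4F-OP-iPS, and of -3.67 in 3F- and -2.31 in 4F-PαS-iPS clones. Mean Sox2 and Nanog were -2.59 and -2.50 in 4F-OP-iPS, against 1.91 and 2.06 in 3F-OP-iPS clones. The part of these levels in the agreement between sources was not tested. The test of the difference itself, TTF against the mean of both bone marrow sources, passed for 0 probes (limma, smallest adjusted p = 0.0673, for Utp14b, and 2422 probes at an unadjusted p under 0.05), so that no probe can be said to respond in TTF clones in particular.

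**Figure D5:**
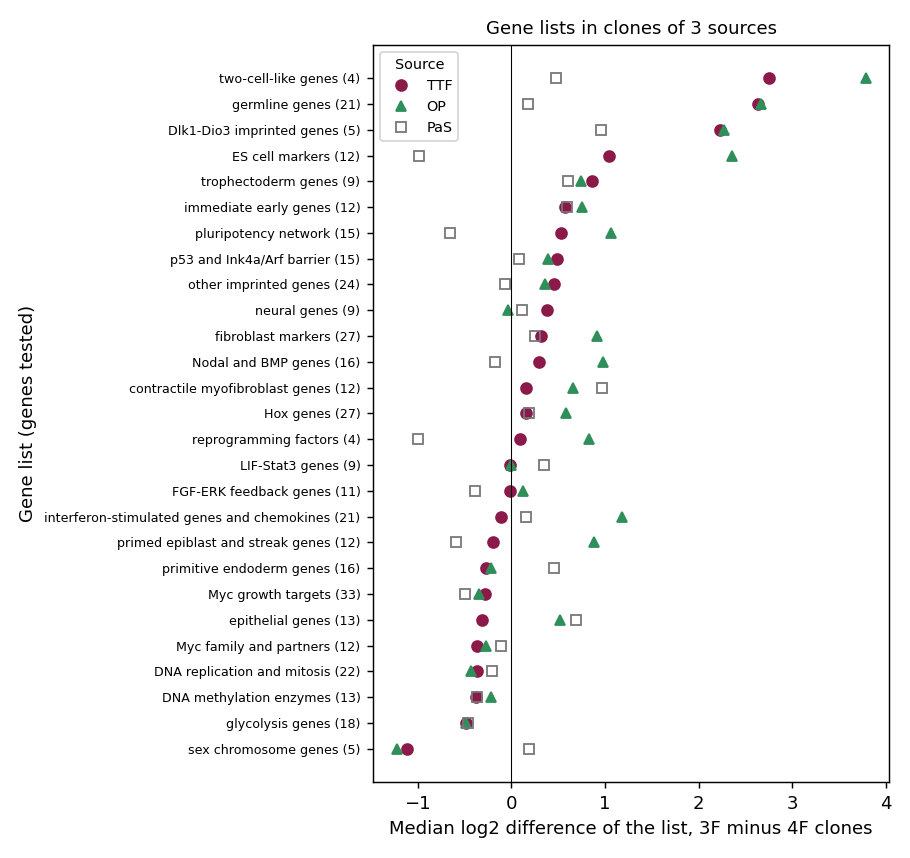
Median log2 difference of each gene list, 3F minus 4F clones, in clones from TTF (circles), OP (triangles) and PαS cells (squares, written PaS), with the number of genes tested in parentheses. Germline genes have medians of 2.63, 2.67 and 0.17 in the 3 sources.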

How the data were processed

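Gene expression was measured in 1 colour (Cy3) on Agilent mouse arrays. The deposited scanner files hold intensities from which the authors' Feature Extraction software (10.5.1.1 for the clones, 10.7.3.1 for an ES array and the primary cells, 9.5.3.1 for the other ES array) had subtracted the background, without scaling between arrays. The authors' value table, made in GeneSpring GX, holds log2 values centred on each probe's median, and matched the values used here on 18968 probes with a correlation of at least 0.999967. Control spots and outlier flags were left out, spots of a probe averaged, and log2 values taken relative to the 75th percentile of the array (41174 gene probes). Symbols were updated by accession through RefSeq, whose symbols covered 29664 probes. Probes that were well above background throughout at least 1 of 7 groups (6 groups of clones and ES cells) were tested in 1 limma fit (limma 3.58.1, R 4.3.3). Tested on simulated data, this fit recovered 45% of 2-fold and 75% of 4-fold changes with 10 false calls, over 27481 probes. Exact permutation tests over 252 splits and the other values were computed with pandas 2.3.3, scipy 1.17.1 and numpy 2.4.6 in Python 3.11.15.

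The members, gene lists and tests were chosen with earlier results of these data known. Named genes are the reprogramming factors, the study's RT-PCR markers, Gm397, Tbx3, Gtl2 and Rian, the 8 largest differences in each direction among changed genes with a RefSeq symbol (split, after the data were seen, into those above background in all 10 clones and those with only a bound), up to 3 changed members of each list or else that with the smallest p, and the probes that passed with the slide as a block. Where a gene had several probes, the brightest on average across the clone and ES arrays stood for it. A bound sets the bright group's mean against the dim group's mean, with dim signals raised to the lowest signal above background on their array. Alternatives were normexp (offset 50), quantile normalization, the authors' table, other filters, a floor, TTF clones alone, array weights, slide and clone number as blocks, and each clone left out. Slide as a fixed block (without 12 probes whose contrast it could not give), and leaving out 4F-TTF-iPS #1 and #3 together, were added after the data were seen, as were the contrast of 3F-TTF-iPS #1 with 4F-TTF-iPS #5 and the random block for the bone marrow contrasts. The number of arrays limits the precision.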

Additional observations from a re-analysis of the deposited data

Results flagged for a closer look

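Of 176 sets of 5 clones examined for named genes and R², 21 had a clone whose distance from the nearest other exceeded the limit of 0.71 of the range, where chance alone gives about 1 in 20 such sets. 4F-TTF-iPS #1 was low in Sox2 (-5.27, others 0.21 to 1.82), Eras (-4.30, others -1.48 to -0.33) and Aldh1l1 (-5.03, others -1.02 to -0.23). 4F-TTF-iPS #3 was high in Zfp42 (3.70, others -0.29 to 0.80) and Eif2s3y (1.48, others -8.10 to -6.63). 4F-TTF-iPS #5, the clone apart from the main slide of its group, was low in Alox15 (-3.40, others 0.54 to 1.93) and Slc2a1 (5.62, others 6.57 to 6.87), and high in Egr2 (-2.02, others -3.80 to -3.41), Cflar (-0.40), Tff1 (0.17), Tatdn3 (0.26) and Taok3 (-2.91). In the last 4 the other 4F-clones were at most -3.78, -3.27, -3.55 and -7.50, and these genes did not change in the fit reported. They were named through the fit with slide as a fixed block, in which #5 alone stands for the 4F-clones. An outlying #5 is therefore no separate result for them.

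3F-TTF-iPS #1, likewise apart from its group's main slide, was low in Pkp1 (-4.94), Ceacam1 (-7.38) and Trp53inp1 (3.76, others 4.31 to 4.51), and high in Sox21 (-1.28, others -2.50 to -2.24) and Slc2a1 (5.86, others 5.08 to 5.25). Evx1 was high in 3F-TTF-iPS #3 (-5.08), Gcnt3 was low in #4 (-7.37), and in #5 Id3 was low (2.18, others 3.30 to 3.74) and Retn high (-4.32). The part of the slide in these values was not tested.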

How the results depend on the processing

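The number of changed probes, 1594, was 478 with normexp, 2828 with TTF clones alone, 3785 with array weights and 2789 with no fold minimum. It was 7 with the slide as a random block, 4 with slide as a fixed block (probes of Cflar, Tff1, Tatdn3 and Taok3) and 599 without 4F-TTF-iPS #1 and #3. Leaving out 1 clone gave 840 (without 4F-TTF-iPS #1) to 1710 (without 4F-TTF-iPS #5), 967 and 1054 without 3F-TTF-iPS #4 and #5 and 983 without 4F-TTF-iPS #2. With quantile normalization it was 1750, 51.9% of them higher against 68.7% as reported, 1587 with the values the authors deposited, and with no filter 1873 (74.5% higher). The clone number as a replicate block gave 2523, but numbers carry no pairing: same-numbered clones had correlated deviations over 0.1 in 1 of 5 pairs (-0.245 to 0.175). With the block the R² difference was 0.00119 (exact permutation test over 5 pairs, p = 0.938). By the exact permutation test R² and likeness stayed above p = 0.05 in every alternative with a test, the difference in R² lying between -0.00828 and 0.00643 (-0.0821 for the correlation of centred values in its place), and the difference in likeness between -0.116 and 0.157 (the latter over pairs on different slides, without a test).

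Of the 3 Myc probes, 2 changed as reported. With normexp, with either slide block and without 4F-TTF-iPS #1 and #3 the number was 0, and without single clones 0 to 2, the former without 4F-TTF-iPS #1. The difference between sources gave 0 probes in the alternatives run, the slide as a random block included, apart from 3 with no filter. Slide as a fixed block turned Esrp1 to 0.57, Hoxc13 to -0.23 and Slc2a1 to 0.81, and the cause was not tested. Their standard errors there were 1.83, 0.68 and 0.96, so that these signs are not settled. The other 55 named probes that changed lost their call there, with Mxd1 at -0.01, Pkm at -0.08 and Dusp6 at -0.19. That fit draws its TTF contrast from 1 clone of each group on the shared slides. Of 58 named probes that changed, among 87 examined, 51 lost their call with the random block and 25 with normexp.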
